A study of Sorghum bicolor with 12 samples.

Results

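Roots of Roma, a sweet sorghum line that is sensitive to salt, were set against roots of M-81E, a line that tolerates it, while both lines stood in saline nutrient solution. The comparison took 6 of the 12 libraries of the series by their labels, 3 of salt-treated Roma (Roma-salt) and 3 of salt-treated M-81E (M-81E-salt). The other 6 libraries, 3 of Roma and 3 of M-81E without added NaCl (Roma-CK and M-81E-CK), showed whether a difference was also present without salt. Plants carried 3 leaves when treatment began, and NaCl was raised by 50 mM every 12 h until it reached 150 mM, at which the plants were held for 24 h, whereas CK plants were kept at 0 mM. The methods of the study give these concentrations and call the 3 libraries of a group biological replicates. Tolerant and sensitive plants were each represented by 1 line. Expression was given as FPKM, fragments counted relative to transcript length and to all mapped fragments, at 34352 loci. Of these, 33237 had a value above 0 in 1 or more salt libraries and were tested.

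Salt around a root withdraws water from its cells and brings sodium into them. Roots make compatible solutes such as proline and raffinose-family sugars, move sodium and potassium across the plasma membrane and into the vacuole, adjust their water channels and break down peroxides. Abscisic acid (ABA) is the hormone that signals water shortage, and late embryogenesis abundant (LEA) proteins protect other proteins in drying cells. What a locus encodes was taken here from the GO terms and the description deposited with it.

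The libraries of a line resembled each other more than those of the other line. Pearson's r of log2(FPKM + 1) across loci, which are not independent replicates, was 0.939 to 0.948 within Roma-salt and 0.931 to 0.943 within M-81E-salt, against 0.864 to 0.882 between the lines. Relative depth, estimated from the spacing of the lowest values, was 0.983 to 1.032 in Roma-salt and 0.842 to 1.017 in M-81E-salt. No counts were used here, so no counting interval was computed. GO terms for root hairs, lateral roots and the Casparian strip marked 149 tested loci, whose summed level was 2562.5 to 2663 FPKM in Roma-salt and 2183.4 to 2499.8 FPKM in M-81E-salt. The 104 loci with photosynthesis terms summed to 140.3 to 151.8 FPKM in Roma-salt and 154.7 to 185.9 FPKM in M-81E-salt. In bulk roots, more cells of a type and more RNA per cell cannot be told apart.

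The scale of the FPKM values differed between the lines. At the 21752 loci above 0 in all 6 libraries, the median ratio of each library to the common geometric mean put Roma-salt 1.282-fold above M-81E-salt, a shift of 0.359 on the log2 scale. The 75th percentile gave a shift of 0.247 and the library sum one of 0.14. Every comparison was therefore made on the deposited values and again after each library was divided by its median ratio (after scaling). Log2 differences are Roma-salt minus M-81E-salt of log2(FPKM + 1) on the deposited values unless a scaled value is named, with the standard error (SE) and the Benjamini-Hochberg adjusted p of limma over all loci tested. Where the mean reached 1 FPKM or more, the median log2 difference was 0.262 on the deposited scale and -0.012 after scaling. Which of the scales reflects the RNA in a root cell was not tested.

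About 3 in 10 loci differed between the lines under salt on the deposited scale, and the balance of directions depended on the scale. Of the 33237 loci, 7047 (21.2%) were higher and 3041 (9.15%) were lower in Roma-salt at an adjusted p under 0.05. After scaling, 4251 (12.8%) were higher and 4490 (13.5%) were lower, so that the share of called loci that were higher in Roma-salt was 48.6% after scaling and 69.9% before it. The same 4251 loci (12.8%) were higher and 3031 (9.12%) were lower on both scales, and 0 loci were called in opposite directions. These 7282 loci are referred to as called on both scales. At none of them did the values of the 6 libraries overlap between the lines, and overlap was also absent at 46.2% of all tested loci. A further 2796 loci were higher on the deposited scale alone and 1459 were lower after scaling alone. The choice of scale thus decided the call at these loci, while leaving out any 1 library left 5332 to 5998 loci called on both scales, 4935 to 5394 of them among the 7282.

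**Figure D1:**
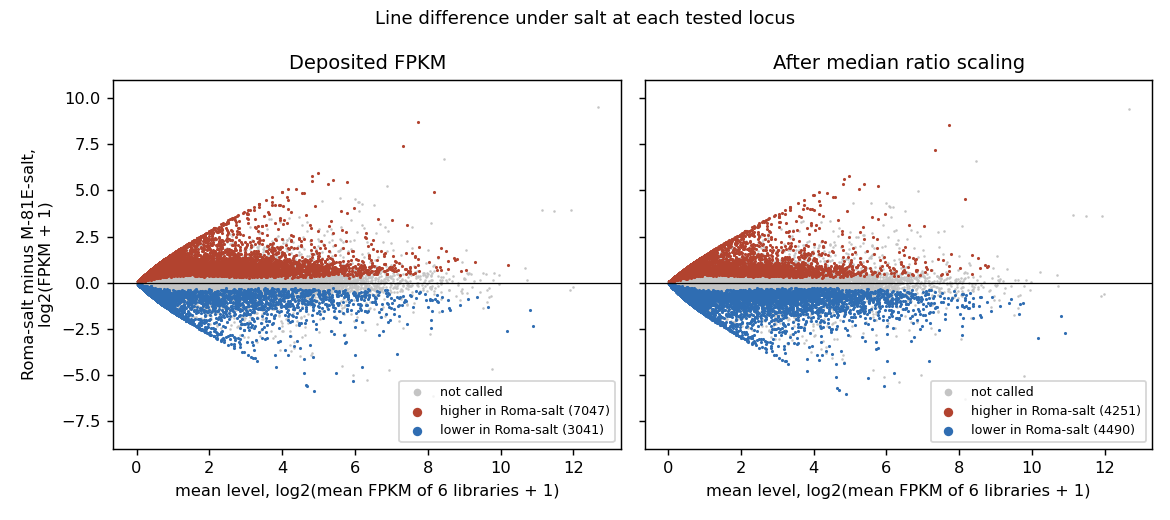
Log2 difference between Roma-salt and M-81E-salt (vertical axis) against the log2 of the mean FPKM + 1 of the 6 libraries (horizontal axis), for each of the 33237 tested loci. The left panel shows deposited FPKM, with 7047 loci higher (red) and 3041 lower (blue) in Roma-salt, and the right panel shows the same loci after median ratio scaling, with 4251 higher and 4490 lower.

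In the plot of the difference against the level, the balance of directions among abundant loci depended on the scale. Among the 11524 loci with a mean of 1 to 10 FPKM, 16.4% were higher and 9.15% were lower in Roma-salt on both scales. Among the 398 loci over 100 FPKM, 8.79% were higher and 17.3% were lower on both scales, against 19.1% and 17.3% on the deposited scale. Among the loci called on both scales, the difference after scaling was at least 1 in size at 1218 higher and 1652 lower loci. It was at least 3 in size at 74 and 74 loci. The study's thresholds were p under 0.05 without adjustment and at least a 1-unit change in the log2 ratio of the group means. With the p of limma, 6002 loci (18.1%) passed them as higher and 2935 (8.83%) as lower, and 55.9% of these loci had a mean under 1 FPKM. With the p of the linear model of Ballgown, the tool of the study, whose library-size covariate correlated at r = 0.993 with line, 502 were higher and 515 were lower.

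Loci outside the gene annotation differed more often than annotated genes. Of 3862 tested loci with no gene name, 27.1% were higher and 23.7% were lower in Roma-salt on both scales, against 10.9% and 6.99% of the 28105 loci with 1 gene name. The median of the mean level was 0.541 FPKM at the loci with no gene name and 0.995 FPKM at those with 1 gene name. Loci with no gene name were assembled by StringTie from the reads of this study, whereas annotated genes were known beforehand. A locus read in 1 line alone could thus enter the table through that line. The shares of the 2 kinds are therefore not on an equal footing, and how much this adds was not tested. Along the chromosomes, read from the gene identifiers, the share called on both scales lay between 16.6% (chromosome 7) and 21.1% (chromosome 5).

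The largest called difference in favour of Roma was at SORBI_3001G482600, a transcription corepressor with GO terms for wounding and for the regulation of jasmonate signalling. It had 387, 439 and 443 FPKM in Roma-salt 1, 2 and 3 (the order used throughout) and was listed at 0 in the 3 M-81E-salt libraries (limma adjusted p = 6.87e-06). It was also listed at 0 in the 3 M-81E-CK libraries, against 213, 258 and 240 FPKM in Roma-CK. In M-81E it was thus listed at 0 with and without salt, and in Roma its level with salt lay above that without salt, a difference that passed the interaction test for line by treatment (0.83 on the log2 scale, adjusted p = 0.0107).

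Zeros in the other loci of this kind were less regular. SORBI_3003G397400, which has no GO term, had 331, 316 and 306 FPKM in Roma-salt and 0, 0 and 5.33 FPKM in M-81E-salt (adjusted p = 0.0019), with 79.9, 0 and 13 FPKM in Roma-CK and 0.165, 0.291 and 0.121 FPKM in M-81E-CK. SORBI_3006G101100 had 57.2, 54.2 and 72.6 FPKM in Roma-salt and was listed at 0 in M-81E-salt (adjusted p = 1.28e-04), yet M-81E-CK held 0, 180 and 178 FPKM. In the opposite direction, SORBI_3002G220000, annotated to anaerobic respiration, was listed at 0 in Roma-salt, against 53.8, 58.6 and 58.3 FPKM in M-81E-salt (adjusted p = 2.26e-05), with 0, 66.1 and 80.1 FPKM in Roma-CK. At the first of these loci M-81E held at most 5.33 FPKM with salt and under 1 FPKM without it, and Roma varied without salt. At the other 2 the line listed at 0 under salt held both a 0 and high values in CK. SORBI_3002G184200, a cytoplasmic protein by GO, was likewise listed at 0 in Roma-salt and held 37, 43.7 and 68.5 FPKM in M-81E-salt, while both CK groups mixed a 0 with values of 26.6 FPKM and more.

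Counted over the table, 183 loci were listed at 0 in Roma-salt and reached at least 1 FPKM in the 3 M-81E-salt libraries, and 233 loci showed the reverse. Of these, 145 and 137 were also listed at 0 in the CK libraries of the same line. Most had no gene name (139 and 185) and so had entered the table through the assembly of these reads. Where 2 libraries of a group had at least 1 FPKM, the remaining one was listed at 0 at 2.49% of loci in Roma-salt and 2.81% in M-81E-salt. An unnamed locus, MSTRG.8362, differed by a similar amount with no 0 under salt: it had 0.011, 0.0156 and 0.0151 FPKM in Roma-salt, against 50.3, 63.9 and 30.4 FPKM in M-81E-salt (log2 difference -5.54, SE 0.27, adjusted p = 4.48e-04), and M-81E-CK held 29.1 to 31.9 FPKM.

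Among genes whose description names a product, the one with the largest called difference in favour of Roma encodes LEA protein 3 (SORBI_3009G215700). It had 335, 398 and 920 FPKM in Roma-salt, against 16.4, 28.3 and 8.32 FPKM in M-81E-salt, a log2 difference of 4.89 (SE 0.56, adjusted p = 0.00272) that was 4.54 after scaling. In CK the lines overlapped, with 5.43, 7.43 and 5.74 FPKM in Roma and 5.54, 5.4 and 4.63 FPKM in M-81E, and the interaction was 4.68 (adjusted p = 0.00864). Roma-salt 3 held more than either other Roma library, and without it the log2 difference was 4.45. A malic enzyme, SORBI_3003G292400, which splits malate into pyruvate and carbon dioxide, was also much further apart with salt than without it. Its levels were 15, 16 and 54.6 FPKM in Roma-salt and 0.492, 0.384 and 0.0943 FPKM in M-81E-salt (log2 difference 4.23, SE 0.51, adjusted p = 0.00328). In CK it was already higher in Roma, with 0.406 to 0.484 FPKM in Roma-CK and 0.0184 to 0.06 FPKM in M-81E-CK (log2 difference 0.47, adjusted p = 0.00146), and the interaction was 3.76 (adjusted p = 0.0138). Without Roma-salt 3 its log2 difference was 3.65.

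**Figure D2:**
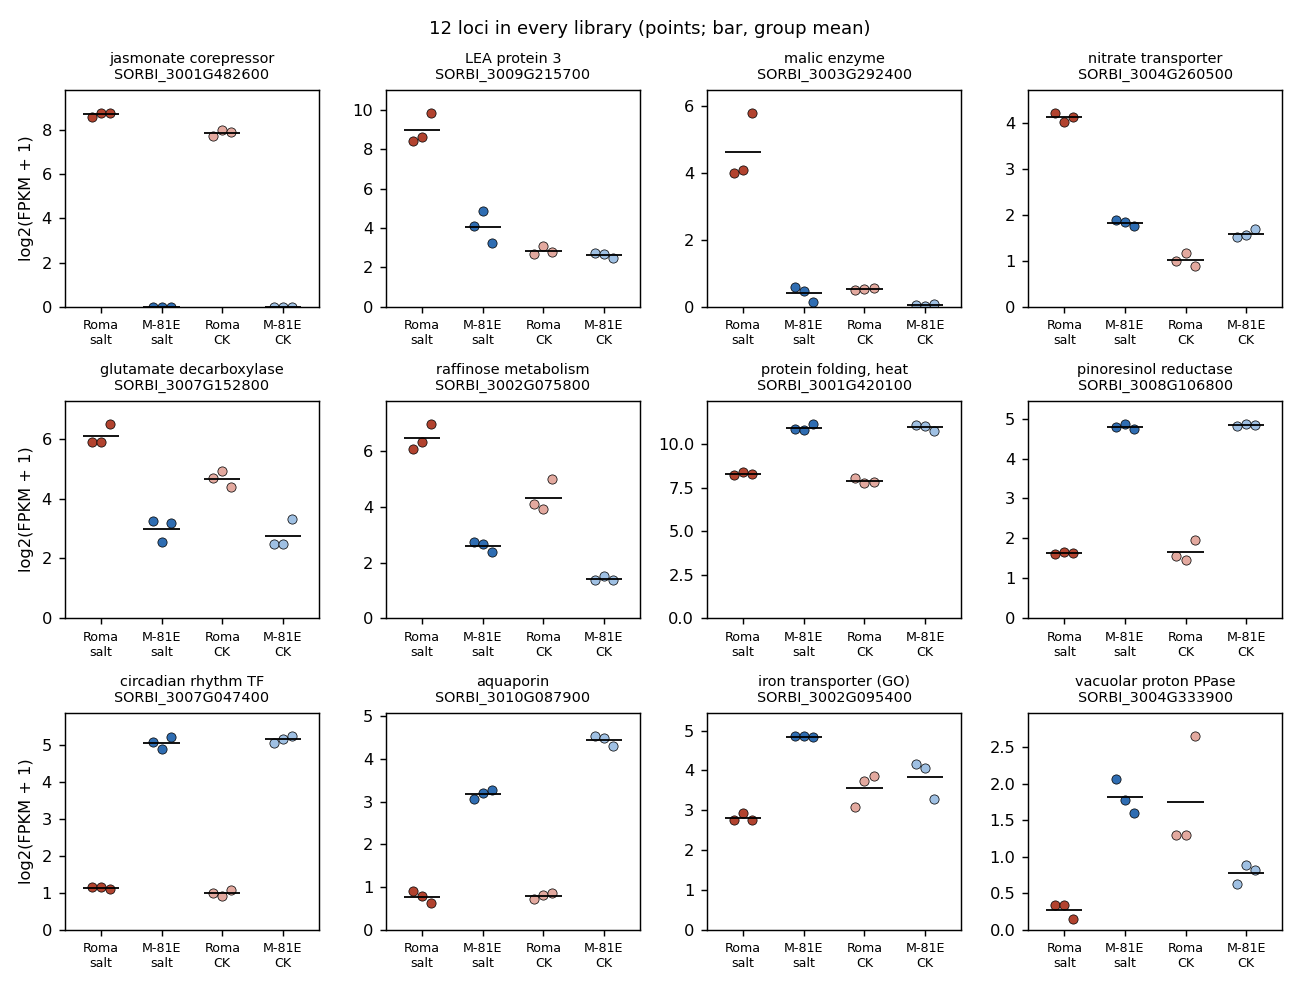
Level in every library (points, log2(FPKM + 1)) and group mean (bar) of 12 loci in Roma-salt, M-81E-salt, Roma-CK and M-81E-CK. The groups with salt do not overlap in any panel, LEA protein 3 is at 335 to 920 FPKM in Roma-salt and under 30 FPKM elsewhere, and the circadian rhythm transcription factor is near 1 FPKM in Roma with and without salt.

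Other described genes were higher in Roma without salt as well. An esterase of the PIR7B type (SORBI_3003G417350) had 41.9, 53.9 and 48.2 FPKM in Roma-salt and 4.73, 4.68 and 4.39 FPKM in M-81E-salt (log2 difference 3.12, SE 0.11, adjusted p = 2.26e-04), with 49.8 to 59.4 FPKM in Roma-CK and 3.5 to 4.63 FPKM in M-81E-CK. Glutamate decarboxylase (SORBI_3007G152800), which makes gamma-aminobutyric acid, had 58.2, 59.1 and 88.8 FPKM in Roma-salt and 8.63, 4.81 and 8.14 FPKM in M-81E-salt (log2 difference 3.1, SE 0.26, adjusted p = 0.00116). Cinnamyl-alcohol dehydrogenase (SORBI_3004G071000), the last step to lignin monomers, had 17.4, 18.5 and 18.8 FPKM in Roma-salt and 3.96, 4.19 and 3.56 FPKM in M-81E-salt (log2 difference 1.97, SE 0.09, adjusted p = 3.62e-04). A wall-associated receptor kinase (SORBI_3002G166150), a putative disease resistance protein of the RGA3 type (SORBI_3002G169633), a homologue of macrophage migration inhibitory factor (SORBI_3008G006200) and a polyprotein (SORBI_3002G163950) were higher in Roma-salt by 1.84 to 2.02 and were called in CK as well. SORBI_3004G155200, a membrane protein, stood apart because its call did not hold: it had 6.6, 6.01 and 6.78 FPKM in Roma-salt and 0, 0 and 3.34 FPKM in M-81E-salt, with an adjusted p of 0.0432 on the deposited scale and 0.0751 after scaling.

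Of the described genes that were lower in Roma-salt, a pinoresinol reductase (SORBI_3008G106800) of lignan synthesis had the tightest values. It had 2.05, 2.18 and 2.09 FPKM in Roma-salt and 26.7, 27.9 and 25.8 FPKM in M-81E-salt (log2 difference -3.16, SE 0.08, adjusted p = 1.34e-04), and the CK libraries held 1.76 to 2.86 FPKM in Roma and 27.3 to 27.9 FPKM in M-81E. An acid phosphatase described as a stem glycoprotein (SORBI_3009G071000) had 0.218, 0.0856 and 0.0707 FPKM in Roma-salt and 4.91, 8.25 and 8.23 FPKM in M-81E-salt. Its difference of -2.83 (SE 0.21, adjusted p = 7.90e-04) was smaller than in CK, where M-81E held 18.5 to 22 FPKM (interaction 1.42, adjusted p = 0.0241, called in 9 of 12 fits that each left out 1 library). A NAC transcription factor of the auxin pathway and of lateral root development (SORBI_3008G164800) had 0.81, 2.66 and 1.31 FPKM in Roma-salt and 12.9, 12.6 and 14.9 FPKM in M-81E-salt (log2 difference -2.54, SE 0.27, adjusted p = 0.00217). Heat shock factor 7 (SORBI_3007G180300), a polyubiquitin (SORBI_3010G223600), a beta-glucosidase (SORBI_3006G145901), a methyltransferase by GO that is described as a transposon protein (SORBI_3008G061201) and the small membrane protein LTI6B (SORBI_3003G137400), which is annotated to cold, drought, salt and ABA, were lower by 1.39 to 1.97 on the log2 scale. Both lines mixed low and high CK values at a ribosomal protein (SORBI_3004G335600), with 84.2, 85 and 13.1 FPKM in Roma and 10.6, 11 and 78.7 FPKM in M-81E, so its difference under salt (log2 difference -1.32, adjusted p = 0.0121) has no steady baseline. A centromeric histone H3 (SORBI_3010G047200) was listed at 0 in Roma-salt, against 12.4, 18.2 and 18.6 FPKM in M-81E-salt, but Roma-CK held 25.4, 32.5 and 0 FPKM. Reads of near-identical copies, as of polyubiquitin, histones and heat shock proteins, may have been divided between loci, and their values are uncertain to that extent.

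Genes annotated to the response to salt stress were called about as often as the average locus. Of 407 tested, 40 (9.83%) were higher and 45 (11.1%) were lower in Roma-salt on both scales, against 12.8% and 9.12% of all loci, and their median log2 difference was 0.088 on the deposited scale and -0.004 after scaling (all loci 0.077 and 0.004). ABA genes had 60 higher and 40 lower of 487, and water deprivation genes 27 and 24 of 280. The largest differences in these lists included a transcription factor of circadian rhythm (SORBI_3007G047400), with 1.21, 1.24 and 1.13 FPKM in Roma-salt and 32.6, 28.5 and 36.4 FPKM in M-81E-salt (log2 difference -3.93, SE 0.11, adjusted p = 1.65e-04). CK held the same order, with 0.879 to 1.1 FPKM in Roma and 32 to 36.9 FPKM in M-81E. Another circadian rhythm factor by its GO terms, SORBI_3010G275700, had 0.241, 0.303 and 0.312 FPKM in Roma-salt and 4.87, 2.97 and 6.26 FPKM in M-81E-salt (log2 difference -2.11). A membrane-anchored protein of cellulose microfibril organization (SORBI_3001G086000) had 0.0515, 0.0844 and 0.0664 FPKM in Roma-salt and 15.6, 16.4 and 19 FPKM in M-81E-salt (log2 difference -4.07, adjusted p = 1.38e-04), and it was lower in CK as well.

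**Figure D3:**
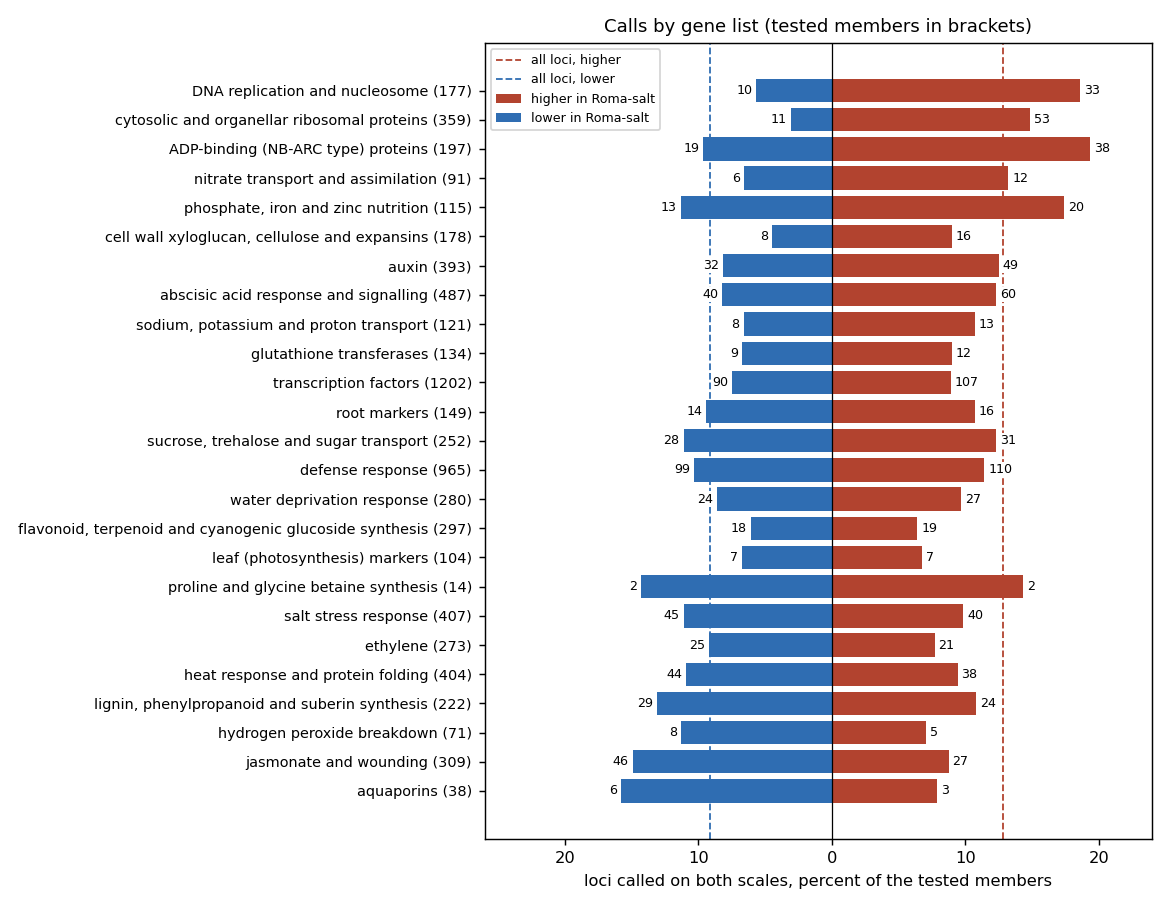
Share of the tested members of each gene list that were called on both scales, higher in Roma-salt (red, to the right) or lower (blue, to the left), in percent, with the number of loci at each bar. Dashed lines mark the shares over all tested loci, 12.8% higher and 9.12% lower. In calls on both scales, aquaporins and jasmonate genes have more lower than higher loci, and DNA replication and ribosomal genes have more higher ones. Among all calls on the deposited scale, 46 jasmonate loci are higher and 46 are lower.

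A further 4 genes had low levels in CK and were higher in Roma under salt. A transcription factor of ABA signalling (SORBI_3010G081800) had 4.72, 4.33 and 10.1 FPKM in Roma-salt and 0.845, 0.954 and 0.31 FPKM in M-81E-salt (log2 difference 2.05, SE 0.33, adjusted p = 0.00825), with under 1 FPKM in all CK libraries, although its interaction did not pass the test (adjusted p = 0.0572). Aconitase (SORBI_3002G316900), of the citric acid and glyoxylate cycles, had 12.1, 14.7 and 29 FPKM in Roma-salt and 1.56, 1.21 and 0.779 FPKM in M-81E-salt (log2 difference 3.09, adjusted p = 0.00241), against 0.558 to 0.789 FPKM in Roma-CK and 0.0823 to 0.167 FPKM in M-81E-CK (interaction 2.54, adjusted p = 0.0138). A pyruvate dehydrogenase subunit by GO (SORBI_3010G101300) had 4.55, 5.18 and 9.52 FPKM in Roma-salt and 0.459, 0.349 and 0.303 FPKM in M-81E-salt (interaction 1.76, adjusted p = 0.0223, 9 of 12 such fits). SORBI_3007G109800, annotated to ion homeostasis, drought and seed dormancy, had 4.67, 5.11 and 12.1 FPKM in Roma-salt and 0.398, 0.787 and 0.581 FPKM in M-81E-salt (interaction 2.18, adjusted p = 0.0397, 4 of 12 fits without 1 library). In all 4 genes Roma-salt 3 held the highest value. One salt gene with a steady difference was the transcription factor SORBI_3004G219800, with 143, 137 and 167 FPKM in Roma-salt and 28.8, 25.6 and 34.9 FPKM in M-81E-salt (log2 difference 2.29, adjusted p = 5.89e-04).

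Of 121 loci for the transport of sodium, potassium and protons, 13 (10.7%) were higher and 8 (6.61%) were lower, against 12.8% and 9.12% of all loci. One of the lower ones was a vacuolar proton pyrophosphatase (SORBI_3004G333900), a pump whose gradient drives sodium into the vacuole. It had 0.261, 0.266 and 0.108 FPKM in Roma-salt and 3.2, 2.42 and 2.02 FPKM in M-81E-salt (log2 difference -1.54, SE 0.16, adjusted p = 0.00209). In CK the values lay in the other order, with 1.45, 1.46 and 5.29 FPKM in Roma and 0.549, 0.853 and 0.767 FPKM in M-81E (adjusted p = 0.258 after scaling), and the interaction was -2.51 (adjusted p = 0.0304). This interaction was called in 4 of 12 fits that each left out 1 library, and not without Roma-salt 1, 2 or 3, M-81E-salt 1 or 2 or M-81E-CK 1, 2 or 3 (adjusted p up to 0.0755). The potassium transporters SORBI_3001G183700 and SORBI_3002G130800 were lower by 1.18 and 0.96 in Roma-salt (adjusted p = 0.046 and 0.0249), a potassium channel (SORBI_3009G188800) was higher by 1.15 and a calcium and cation antiporter of the vacuole (SORBI_3003G184800) by 1.36. Both potassium transporters depended on single libraries. SORBI_3001G183700 lost its call without any 1 library other than Roma-salt 2 (-0.93 to -1.27), and SORBI_3002G130800 without Roma-salt 1 or 2 or M-81E-salt 2 or 3 (-0.8 to -1.01).

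Aquaporins, the channels through which water crosses membranes, had 3 higher and 6 lower calls among 38 (7.89% and 15.8%, against 12.8% and 9.12% of all loci). Their median log2 difference was 0.03 on the deposited scale and -0.113 after scaling. SORBI_3010G087900 had 0.881, 0.728 and 0.541 FPKM in Roma-salt and 7.41, 8.27 and 8.65 FPKM in M-81E-salt (log2 difference -2.41, SE 0.12, adjusted p = 4.78e-04). The gap was wider in CK, where M-81E held 18.9 to 22.3 FPKM and Roma 0.653 to 0.819 FPKM (interaction 1.24, adjusted p = 0.00583). SORBI_3002G125700 and SORBI_3006G150100 were lower by 1.47 and 1.21. By contrast, the abundant plasma membrane aquaporin SORBI_3002G124700 had 99.4, 93.2 and 107 FPKM in Roma-salt and 47.6, 55.7 and 48.7 FPKM in M-81E-salt, and the vacuolar one SORBI_3009G085900 was higher by 1.88.

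Single enzymes of proline and raffinose metabolism were higher in Roma-salt, while the proline list had as many lower as higher calls. Of 14 loci for proline and glycine betaine, 2 were higher and 2 were lower (14.3% each, against 12.8% and 9.12% of all loci). Both higher ones carry glutamate-5-semialdehyde dehydrogenase activity of proline synthesis: SORBI_3003G356000 had 22.9, 24.3 and 33 FPKM in Roma-salt and 6.48, 5.72 and 4.97 FPKM in M-81E-salt (log2 difference 2.03, SE 0.17, adjusted p = 0.00104), and SORBI_3009G160100 was higher by 1.17. SORBI_3003G356000 was also higher in CK, with 8.82 to 11.4 FPKM in Roma and 3.36 to 5.35 FPKM in M-81E (limma adjusted p = 0.01). Its interaction was not called (adjusted p = 0.0934). In the sugar list of 252 loci, 31 were higher and 28 were lower. A raffinose metabolism enzyme with galactinol-sucrose galactosyltransferase activity (SORBI_3002G075800) had 66.4, 80.2 and 124 FPKM in Roma-salt and 5.62, 5.37 and 4.27 FPKM in M-81E-salt (log2 difference 3.86, SE 0.25, adjusted p = 5.87e-04). SORBI_3001G044800, with the same activity, was higher by 2.99 and a sugar transporter (SORBI_3001G373600) by 3.4. A trehalose phosphate synthase (SORBI_3007G126100) went the other way, with 35.1, 38.8 and 28.1 FPKM in Roma-salt and 103, 93.3 and 99.2 FPKM in M-81E-salt (log2 difference -1.52, adjusted p = 0.00139, interaction -1.16, adjusted p = 0.0201, 10 of 12 fits without 1 library). A sucrose-splitting enzyme of mitochondria by GO (SORBI_3003G153800) was lower by 1.39 (adjusted p = 0.0176), but not past the threshold without Roma-salt 1 or 3 or M-81E-salt 1 or 3 (-1.22 to -1.39).

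Beside SORBI_3003G292400, the 9 malic enzymes held 1 more higher and 1 lower call. SORBI_3005G154850 had 2.26, 1.75 and 2.2 FPKM in Roma-salt and 0.165, 0.236 and 0.448 FPKM in M-81E-salt (log2 difference 1.26, adjusted p = 0.00245). SORBI_3009G108700 had 42.1, 43.8 and 39.5 FPKM in Roma-salt and 57, 56 and 65.6 FPKM in M-81E-salt (log2 difference -0.5, adjusted p = 0.0156), and without Roma-salt 1 its log2 difference of -0.5 no longer passed the test. The remaining 6 had log2 differences of -0.61 to 0.3 on the deposited scale and -0.97 to -0.05 after scaling, with means of 1.9 to 87.2 FPKM, and were not called on both scales.

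Loci for nitrate differed in both directions. A nitrate transporter (SORBI_3004G260500) had 17.6, 15.2 and 16.6 FPKM in Roma-salt and 2.68, 2.61 and 2.39 FPKM in M-81E-salt (log2 difference 2.29, SE 0.09, adjusted p = 3.18e-04). Without salt it was lower in Roma, with 0.997, 1.26 and 0.858 FPKM in Roma-CK and 1.88, 1.93 and 2.21 FPKM in M-81E-CK, and its interaction of 2.86 had the smallest adjusted p (3.05e-05) of the loci described here. The nitrate reductases SORBI_3004G312500 and SORBI_3007G153900, which turn nitrate into nitrite, were higher by 2.29 and 2.69 (adjusted p = 0.00228 and 0.00292). SORBI_3004G312500 was also higher in CK, by 3.71, with 31.7 to 76.2 FPKM in Roma and 2.2 to 2.99 FPKM in M-81E (limma adjusted p = 0.00157). Its interaction of -1.42 was not called (adjusted p = 0.164). A vacuolar nitrate and peptide transporter (SORBI_3002G367700) was lower in Roma-salt by 1.39. In the list for nitrate, 12 loci (13.2%) were higher and 6 (6.59%) were lower of 91, against 12.8% and 9.12% of all loci.

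Of 115 loci for phosphate, iron and zinc, 20 (17.4%) were higher and 13 (11.3%) were lower, against 12.8% and 9.12% of all loci. By its GO terms SORBI_3002G095400 carries iron, and it had 5.77, 6.59 and 5.71 FPKM in Roma-salt and 28.2, 28 and 27.5 FPKM in M-81E-salt (log2 difference -2.04, SE 0.08, adjusted p = 3.18e-04), with overlapping CK levels of 7.47 to 13.5 FPKM in Roma and 8.75 to 16.9 FPKM in M-81E. Its interaction was -1.76 with an adjusted p of 0.0388, and 0.0681 after scaling, and it was called in 2 of 12 fits without 1 library. An iron and manganese transporter (SORBI_3010G002500) had 44.9, 42.4 and 34.6 FPKM in Roma-salt and 112, 109 and 140 FPKM in M-81E-salt (log2 difference -1.54, interaction -1.52, adjusted p = 0.00877). At both iron loci the lines overlapped without salt and did not overlap with it. Higher in Roma-salt were a zinc transporter (SORBI_3006G212200, by 1.7, interaction 0.97, adjusted p = 0.0245, 8 of 12 fits without 1 library), a phosphate transporter of the vacuole (SORBI_3004G282900, by 2.57) and an enzyme of sulfolipid synthesis that answers phosphate starvation (SORBI_3009G123300, by 1.63). Another zinc transporter, SORBI_3001G142900 of the plasma membrane, was lower by 1.4 (SE 0.37, limma adjusted p = 0.038, after scaling 0.0279).

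A chaperone was the most abundant of the lower genes described here. SORBI_3001G420100, of protein folding and the heat response, had 296, 344 and 312 FPKM in Roma-salt and 1890, 1820 and 2250 FPKM in M-81E-salt (log2 difference -2.64, SE 0.19, adjusted p = 7.68e-04), and CK held 217 to 270 FPKM in Roma and 1770 to 2210 FPKM in M-81E. SORBI_3001G129000, a folding protein of plastids and mitochondria by GO, was lower by 2.48. SORBI_3009G163900 had 0.61, 0.0298 and 0.00946 FPKM in Roma-salt and a wide 9.23, 55.9 and 74.1 FPKM in M-81E-salt (log2 difference -4.89, SE 0.79, adjusted p = 0.0079). In the whole list of heat response and folding, 38 loci were higher and 44 were lower of 404 (9.41% and 10.9%, against 12.8% and 9.12% of all loci). A small protein of the heat response (SORBI_3003G082000) had 4.09, 5.34 and 10.1 FPKM in Roma-salt and 0.645, 0 and 0.442 FPKM in M-81E-salt (adjusted p = 0.00568), with at most 0.798 FPKM in CK (interaction 2.42, adjusted p = 0.0377, called in 1 of 12 fits without 1 library).

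Enzymes that act on peroxides and toxins differed in both directions. Of 71 loci for hydrogen peroxide breakdown, 5 (7.04%) were higher and 8 (11.3%) were lower. Of 134 glutathione transferases, 12 (8.96%) were higher and 9 (6.72%) were lower. Over all loci the shares were 12.8% and 9.12%. The peroxidases SORBI_3001G328100 and SORBI_3002G416900, both with GO terms for lignin and xylem, were higher in Roma-salt by 1.59 and 1.62. The peroxidases SORBI_3001G444400 and SORBI_3002G010700 were lower by 1.54 and 1.09, and the second of them carries a term for salt stress. Among glutathione transferases, SORBI_3004G044900 had 14.2, 17.7 and 17.2 FPKM in Roma-salt and 0.863, 0.633 and 0.299 FPKM in M-81E-salt (log2 difference 3.45, SE 0.17, adjusted p = 4.58e-04), and SORBI_3001G318200 was higher by 2.29.

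In lignin and phenylpropanoid synthesis, 24 loci (10.8%) were higher and 29 (13.1%) were lower of 222, against 12.8% and 9.12% of all loci. The multicopper oxidases of lignin formation SORBI_3001G422300 and SORBI_3003G353200 were higher by 2.84 and 2.18, the first with 9.84, 7.49 and 8.94 FPKM in Roma-salt and 0.327, 0.641 and 0.14 FPKM in M-81E-salt. A regulator of lignin synthesis and cold acclimation (SORBI_3003G354900) had 0.407, 0.539 and 0.347 FPKM in Roma-salt and 8.29, 7.76 and 12.1 FPKM in M-81E-salt (log2 difference -2.84), and a phenylpropanoid protein that guides stereospecific coupling (SORBI_3008G168800) was lower by 2.7. The cell wall list had 16 higher (8.99%) and 8 lower (4.49%) loci of 178. In it, a xyloglucan transferase (SORBI_3005G140001) had 18.9, 24 and 15.8 FPKM in Roma-salt and 4.02, 2.62 and 1.22 FPKM in M-81E-salt (log2 difference 2.56, adjusted p = 0.00395). An enzyme with cellulose synthase activity by GO (SORBI_3002G237900) was lower by 1.55, with 2.68, 3.08 and 2.19 FPKM in Roma-salt and 11, 10.1 and 7.99 FPKM in M-81E-salt.

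Of 309 jasmonate and wounding genes, 27 (8.74%) were higher and 46 (14.9%) were lower on both scales, against 12.8% and 9.12% of all loci. The balance depended on the scale. Counting all calls on the deposited scale, 46 were higher and 46 were lower, and after scaling 27 were higher and 60 were lower. Their median log2 difference was 0.014 on the deposited scale and -0.102 after scaling. A glutamate receptor channel of wounding and gravitropism (SORBI_3004G013200) had 0.137, 0.148 and 0.0696 FPKM in Roma-salt and 12.9, 7.05 and 17.1 FPKM in M-81E-salt (log2 difference -3.5, SE 0.3, adjusted p = 0.00122). Ethylene had 21 higher (7.69%) and 25 lower (9.16%) of 273, and auxin 49 (12.5%) and 32 (8.14%) of 393. A factor annotated to ethylene, ABA and jasmonate (SORBI_3004G070900) had 31.5, 32.2 and 25.1 FPKM in Roma-salt and was listed at 0 in all 6 M-81E libraries (adjusted p = 1.34e-04), while Roma-CK held 29.2 to 40 FPKM. A microtubule-binding growth regulator that responds to cytokinin (SORBI_3005G128800) had 0.144, 0.188 and 0.121 FPKM in Roma-salt and 10.1, 10.5 and 11.1 FPKM in M-81E-salt (log2 difference -3.33). A monooxygenase of auxin transport and shoot branching (SORBI_3003G269500) was higher by 2.08 under salt, with 13.9, 12.6 and 9.93 FPKM in Roma-salt and 1.59, 2.27 and 2.43 FPKM in M-81E-salt, and further apart in CK, where Roma held 30.5 to 53 FPKM (interaction -1.72, adjusted p = 0.0217, 10 of 12 fits without 1 library).

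Of 1202 transcription factors, 107 (8.9%) were higher and 90 (7.49%) were lower, against 12.8% and 9.12% of all loci. SORBI_3006G142000 had 17.5, 19.3 and 35.4 FPKM in Roma-salt and 0.337, 0.0709 and 0.481 FPKM in M-81E-salt (log2 difference 4.22, SE 0.29, adjusted p = 6.71e-04), against 1.63 to 4.34 FPKM in Roma-CK (interaction 2.53, adjusted p = 0.0227, 7 of 12 fits without 1 library). SORBI_3003G150400, a factor that regulates the response to hypoxia, had 33.4, 46.2 and 9.71 FPKM in Roma-salt and 0.64, 0.821 and 0 FPKM in M-81E-salt (adjusted p = 0.0056), although the CK levels were 2.82 to 7.54 FPKM in Roma and 5.52 to 8.08 FPKM in M-81E. Its salt levels thus lay above those of CK in Roma and below them in M-81E (interaction 4.38, adjusted p = 0.024, 9 of 12 fits without 1 library).

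ADP-binding proteins, the class of intracellular immune receptors, had 38 higher (19.3%) and 19 lower (9.64%) of 197, against 12.8% and 9.12% of all loci. The wider list of defense response had 110 (11.4%) and 99 (10.3%) of 965. SORBI_3006G001900 had 5.91, 6.31 and 6.07 FPKM in Roma-salt and 0.149, 0.0929 and 0.074 FPKM in M-81E-salt (log2 difference 2.68, SE 0.1, adjusted p = 2.75e-04). SORBI_3005G019400 was higher by 2.92, and 1 locus that holds SORBI_3005G053501 and SORBI_3005G053800 by 2.15. A locus that holds SORBI_3005G154400 and SORBI_3005G154300 was lower by 2.17, and all 4 loci differed in the same direction in CK. In terpenoid synthesis, a sesquiterpene synthase (SORBI_3007G055500) had 5.72, 5.81 and 4.1 FPKM in Roma-salt and 0.475, 0.578 and 0.144 FPKM in M-81E-salt (log2 difference 2.15, interaction 1.6, adjusted p = 0.036, 3 of 12 fits without 1 library), and 1-deoxyxylulose phosphate synthase (SORBI_3002G064500) was higher by 2.07. The list of flavonoid, terpenoid and cyanogenic glucoside synthesis held 19 higher (6.4%) and 18 lower (6.06%) of 297.

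Ribosomal protein and DNA replication loci had more higher than lower calls in Roma-salt. Of 359 ribosomal protein loci, 53 (14.8%) were higher and 11 (3.06%) were lower on both scales, against 12.8% and 9.12% of all loci. The share of higher calls was thus close to that of all loci, and the share of lower calls was smaller. Their median log2 difference was 0.472 on the deposited scale and 0.199 after scaling. Of 177 loci of DNA replication and nucleosomes, 33 (18.6%) were higher and 10 (5.65%) were lower on both scales, with medians of 0.363 and 0.173. Counting all calls on the deposited scale, whether or not they held after scaling, 140 ribosomal loci were higher and 11 were lower, where the shares over all loci were 21.2% and 9.15%. After scaling, 53 were higher and 21 were lower, where the shares over all loci were 12.8% and 13.5%. A protein of the small ribosomal subunit (SORBI_3005G019700) had 92.8, 87.6 and 99.7 FPKM in Roma-salt and 20.7, 28.9 and 33.3 FPKM in M-81E-salt (log2 difference 1.74, adjusted p = 0.00217), against 83.5 to 99.2 FPKM in Roma-CK and 60.1 to 76.1 FPKM in M-81E-CK (interaction 1.29, adjusted p = 0.0306, 4 of 12 fits without 1 library). A subunit of the FACT histone chaperone (SORBI_3004G007133) had 2.92, 2.6 and 3.5 FPKM in Roma-salt and 0.0452, 0.0241 and 0 FPKM in M-81E-salt. A nucleosome protein (SORBI_3003G200501) had 113, 85 and 113 FPKM in Roma-salt and 12.3, 0 and 0 FPKM in M-81E-salt (adjusted p = 0.0146), with 94.3 to 112 FPKM in Roma-CK in contrast to M-81E-CK, where it was listed at 0. After scaling it lost its call without any 1 library other than M-81E-salt 1 (adjusted p = 0.0577 to 0.0673). A locus of 3 nucleosome genes (SORBI_3003G067400, SORBI_3003G067300 and SORBI_3003G067500) was higher by 2.82.

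The study built a network of 5 lncRNAs, 5 miRNAs and 14 target genes, with miRNAs from small RNA libraries and targets predicted from sequence. It also measured these RNAs by qRT-PCR in M-81E and Roma. The RNA-seq levels of its lncRNAs and targets came from the libraries used here, so these loci are no independent evidence. Of the 19 loci, 1 was higher and 5 were lower in Roma-salt on both scales. The locus with the number of lncRNA26929 had 0.0131, 0.0259 and 0.0125 FPKM in Roma-salt and 2.09, 1.71 and 1.69 FPKM in M-81E-salt (log2 difference -1.47, SE 0.1, adjusted p = 6.06e-04). That of lncRNA11310 had 0.358, 0.997 and 0.582 FPKM in Roma-salt and 2.01, 1.83 and 1.91 FPKM in M-81E-salt (log2 difference -0.84, adjusted p = 0.0165, interaction -1.11, adjusted p = 0.0267, 5 of 12 fits without 1 library), and without M-81E-salt 1 its log2 difference was -0.82 and did not pass. The loci of lncRNA13472, lncRNA14798 and lncRNA2846 were not called (log2 differences 0.25, 0.08 and 0.09, adjusted p = 0.208, 0.21 and 0.696), and the lncRNA14798 locus also carries SORBI_3004G068800, from which the lncRNA cannot be separated. Among the targets, SORBI_3004G116300, a calmodulin-binding protein, was lower by 0.96, a transcription factor locus of osmotic stress (SORBI_3009G182800 and SORBI_3009G183000) by 0.95 and a factor that answers reactive oxygen (SORBI_3009G208000) by 0.66. The calls of the last 2 loci were lost without single libraries: the first without Roma-salt 2 or 3 or M-81E-salt 1 or 2 (-0.78 to -0.96), the second without any other than Roma-salt 2 (-0.58 to -0.72). The ABA factor SORBI_3010G081800 was the higher one. The sodium and proton antiporter SORBI_3009G042700, with 13.2, 14.4 and 17.9 FPKM in Roma-salt and 9.16, 9.12 and 7.98 FPKM in M-81E-salt, was called on the deposited scale (log2 difference 0.72, adjusted p = 0.0125) but not after scaling (0.39, adjusted p = 0.0756). A ubiquitination protein (SORBI_3007G046900) also lost its call after scaling (adjusted p = 0.0472 and 0.0589).

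Most line differences under salt were present without salt. The comparison of Roma-CK with M-81E-CK, which shares no library with the salt comparison, called 7619 of 32931 loci after scaling (23.1%), 3394 higher and 4225 lower in Roma-CK. Of the 7282 loci called on both scales under salt, 7268 were tested in CK, 93.3% of these had the same sign there (72.9% of all loci tested), 57% were called with the same sign and 29 loci were called with the opposite sign. Across 31816 loci, the line differences after scaling, with and without salt, correlated at r = 0.662, which describes loci that share their libraries.

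**Figure D4:**
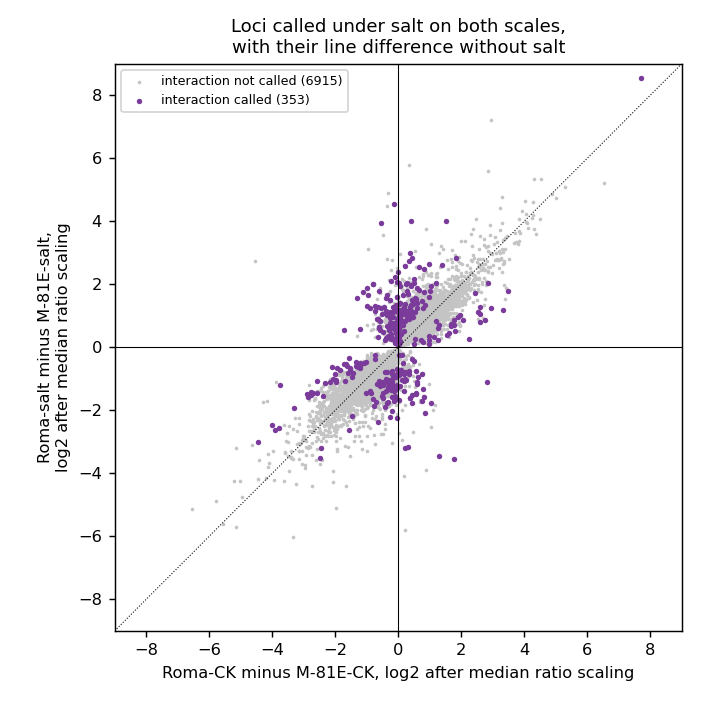
Line difference under salt (vertical axis) against the line difference without salt (horizontal axis), both as log2 Roma minus M-81E after median ratio scaling, for the 7268 loci called under salt on both scales and tested in CK. Most points lie near the dotted line of equal differences, and the 353 loci with a called interaction (purple) include many with a CK difference near 0.

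The interaction of line and treatment, fitted over the 12 libraries, was called at 621 of 34352 loci (1.81%), and 361 of them (4.96% of the 7282) were among the loci called on both scales. At 182 loci Roma-salt was higher and the difference was larger under salt than in CK. Their median log2 differences after scaling were 1.11 under salt and 0.02 in CK. At 170 of these the 3 Roma-salt libraries all lay above Roma-CK, whereas M-81E-salt lay above M-81E-CK at 26 and below it at 52. These loci and the 102 that follow were chosen by an interaction fitted to the same libraries. Such counts therefore follow in part from that choice, and no share over all tested loci was computed for them. At 102 loci Roma-salt was lower with a larger difference under salt (medians after scaling -1.25 and -0.07). Here Roma-salt lay below Roma-CK at 64 and M-81E-salt above M-81E-CK at 78. In the plot of salt against CK differences, the remaining loci had a smaller difference under salt, 33 that were higher and 44 that were lower. Roma-salt 3 held the highest Roma value at 114 of the 182 loci, against 25 and 43 for Roma-salt 1 and 2. It also held the highest at 47% of the 4251 loci called higher on both scales and at 35.4% of all tested loci. Its part in the result was not tested, but without it 129 of the 182 were called. Fewer were called without an M-81E library, 72 to 101 without M-81E-CK 1, 2 or 3 and 78 to 103 without M-81E-salt 1, 2 or 3, and 111 without Roma-CK 2. Of the 102 loci, 41 to 60 were called without M-81E-CK 1, 2 or 3, 47 and 54 without M-81E-salt 1 and 2, 61 without Roma-CK 2 and 59 without either Roma-salt 1 or Roma-salt 3. Of the 21 loci described above with a called interaction, 7 kept the call when each of the 12 libraries was left out in turn: SORBI_3001G482600, LEA protein 3, the malic enzyme SORBI_3003G292400, aconitase, the aquaporin SORBI_3010G087900, the nitrate transporter SORBI_3004G260500 and the iron and manganese transporter SORBI_3010G002500. The other 14 were not called without M-81E-CK 1, among other libraries.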

How the data were processed

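Root RNA of 12 libraries was measured, 3 in each of the groups Roma-salt, M-81E-salt, Roma-CK and M-81E-CK, which were taken from the sample titles. Reads were trimmed by the authors with Cutadapt, mapped with Bowtie2 and TopHat2 and assembled by StringTie, and the FPKM of every locus was deposited in 1 table. Tool versions and the genome build are not given in the sources used here. Columns were assigned to samples through their names, with 0 left over. FPKM values are not counts, and their depth was known only in relation to other libraries. An FPKM of 0 can be a failed estimate, so groups that hold a 0 are given as single values. The study describes libraries depleted of ribosomal RNA, whereas the labels name a small RNA kit.

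The lines were compared with limma 3.58.1 (R 4.3.3) on log2(FPKM + 1), eBayes with a trend, for loci above 0 in at least 1 of the 6 salt libraries, with Benjamini-Hochberg adjustment and a threshold of 0.05. The fit was tested on simulated data. Libraries were also divided by their median ratio to the geometric mean over loci above 0 in all 6. The two-sided exact permutation test over 3 against 3 libraries cannot go below p = 0.1. Other steps used matplotlib 3.10.9, scipy 1.17.1, pandas 2.3.3 and numpy 2.4.6 in Python 3.11.15. Alternatives were a pseudocount of 0.1, filters on low values and zeros, other scalings and variance priors, the linear model of Ballgown, 1 fit of all 12 libraries, a replicate block and each library left out.

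The loci named were the 10 largest called differences in each direction with 1 gene name, a description that names a product and no overlap, the 3 largest of any kind, up to 3 called members of each gene list in each direction, the network of the study, and the malic enzymes and LEA proteins. Of these, the text gives a selection. Lists were built from GO terms and descriptions. The loci, lists and comparison were chosen with earlier results of these data known.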

Additional observations from a re-analysis of the deposited data

Results flagged for a closer look

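At 21 of the loci described above, the line difference under salt differed from that without salt in the test of the interaction (log2 difference under salt minus that in CK, limma, adjusted p under 0.05). The interaction was called at 1.81% of all loci. The 21 were named by other rules, most by the size of the line difference under salt. The salt libraries also enter the interaction, so that choice was not independent of this test. No explanation was tested for any of the 21.

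A positive value, with Roma higher under salt, was found for LEA protein 3 (SORBI_3009G215700, 4.68), the hypoxia factor SORBI_3003G150400 (4.38), the malic enzyme SORBI_3003G292400 (3.76), the nitrate transporter SORBI_3004G260500 (2.86), aconitase (SORBI_3002G316900, 2.54), the transcription factor SORBI_3006G142000 (2.53), the heat response protein SORBI_3003G082000 (2.42), SORBI_3007G109800 (2.18), the pyruvate dehydrogenase subunit SORBI_3010G101300 (1.76), the sesquiterpene synthase SORBI_3007G055500 (1.6), the ribosomal protein SORBI_3005G019700 (1.29), the zinc transporter SORBI_3006G212200 (0.97) and the corepressor SORBI_3001G482600 (0.83). In the stem glycoprotein SORBI_3009G071000 (1.42) and the aquaporin SORBI_3010G087900 (1.24) the positive value marks a smaller deficit of Roma under salt.

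A negative value was found for the proton pyrophosphatase SORBI_3004G333900 (-2.51), the iron transporter SORBI_3002G095400 (-1.76), the iron and manganese transporter SORBI_3010G002500 (-1.52), the trehalose phosphate synthase SORBI_3007G126100 (-1.16) and the lncRNA11310 locus MSTRG.11310 (-1.11), at which Roma was lower under salt. At the monooxygenase SORBI_3003G269500 (-1.72) it marks a smaller excess of Roma under salt. The interaction was lost in most of the 12 fits without 1 library at SORBI_3003G082000 (called in 1 of 12), SORBI_3002G095400 (2), SORBI_3007G055500 (3), SORBI_3004G333900 (4), SORBI_3007G109800 (4), SORBI_3005G019700 (4) and MSTRG.11310 (5).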

How the results depend on the processing

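The 10088 calls on the deposited scale (7047 higher, 3041 lower) stayed within 1.5 times under a pseudocount of 0.1, a filter on zeros, other variance priors and scalings other than those named here. Median ratio scaling left 4251 loci higher. A mean of at least 1 FPKM left 1826 lower. Without 1 library, 7222 to 8503 loci were called, 4780 to 6091 of them higher. With median ratio scaling as well, alternatives chosen after seeing the data gave 6175 (3191 higher) without Roma-salt 1, 3539 higher without Roma-salt 2, 3655 higher without Roma-salt 3, 6594 (2940 higher) without M-81E-salt 1, 3082 higher without M-81E-salt 2, 3179 higher without M-81E-salt 3, and 5913 (2897 higher) with a mean of at least 1 FPKM. The 8937 loci past the thresholds of the study became 3960 with a mean of at least 1 FPKM, 5804 with all 6 libraries above 0, 3438 with scaling and that mean, and 3358 with the limma difference as fold threshold.

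Same-numbered libraries did not deviate together (r of -0.025, 0.005 and 0.013 for the 3 numbers), so the numbers were not taken to pair them. A replicate block left 6455 calls (4398 higher), 5495 (2556 higher) with scaling as well, and gave 237 interaction calls, against 621 without the block. Leaving out 1 of the 12 libraries, added after seeing the data, left 292 to 598 interaction calls, with the lowest number without M-81E-CK 2.

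The library-size covariate of Ballgown correlated at r = 0.993 with line. Its model called 1 locus (1 higher, 0 lower) by adjusted p and 1017 by the thresholds of the study (502 higher, 515 lower), and turned the sign at SORBI_3003G397400 (-5.33), SORBI_3004G155200 (-8.03), SORBI_3004G335600 (0.32), SORBI_3004G333900 (0.3), SORBI_3001G183700 (2.32), SORBI_3002G125700 (0.82), SORBI_3006G150100 (2.0), SORBI_3003G153800 (1.09), SORBI_3004G312500 (-1.6), SORBI_3007G153900 (-2.41), SORBI_3005G019700 (-1.01), SORBI_3002G237900 (0.51), MSTRG.11310 (0.69), MSTRG.2846 (-1.18), SORBI_3007G046900 (-1.09) and SORBI_3005G154850 (-0.71). Otherwise the sign turned only at loci that were not called: MSTRG.13472 after scaling without Roma-salt 2 (-0.05) or M-81E-salt 1 (-0.02), and MSTRG.2846 without Roma-salt 1 (-0.09, after scaling -0.1), which lay at up to 0.19 without other libraries. The zinc transporter SORBI_3001G142900 was not tallied over these settings. Of the other 104 loci described, 101 were called on the deposited scale. The Ballgown model kept 0 of these calls. In the other 23 settings, 86 of the 101 were called in every setting that could test them.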
